A study of Homo sapiens with 24 samples.

Results

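H3K4me3 was examined at the ends of human chromosomes in EndoC-βH3, a human pancreatic beta cell line that can be made senescent. The members are the regions of the deposited H3K4me3 table that lie fully within 2 Mb of an autosome end in hg38. The short arms of chromosomes 13, 14, 15, 21 and 22 and all of chromosome 19 were left out, which leaves 37 chromosome arms. By this rule 3534 of the 97545 regions were members. A region counted as near a start when it overlapped 2 kb on either side of any start of a protein-coding gene in GENCODE, and 1282 members were near a start and 2252 away from starts.

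The values rest on 8 samples, of which 4 were non-senescent and 4 senescent, with 500000 cells in each. All carry the genotype label WT and come from this single cell line. The paper describes the line as immortalized with transgenes for hTERT, the catalytic subunit of telomerase, and for Large T-antigen, which inhibits p53 and Rb. In the senescent cells both transgenes were excised by CreER, a recombinase activated by 4-OHT (4-hydroxytamoxifen). The senescent cells had received 4-OHT for 3 weeks, at a concentration that the labels give as 1 mM and the methods as 1 μM. Neither source says that the samples of a state were separate cultures. Each region has 1 pooled level, the authors' mean over the 8 samples of read counts normalized with DESeq2, referred to as the mean normalized count. It carries no SD and no value per sample, so it describes both states together, senescent and non-senescent cells are not compared, and the depth of each sample is unknown.

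Trimethylation of lysine 4 on histone H3 marks promoters that are active or poised, and it is most often found over CpG islands. Chromosomes end in telomeres, long arrays of a TTAGGG repeat, and the stretch next to them, the subtelomere, is a patchwork of segments copied between chromosome ends. Genes farther in can be dense and GC-rich, and families such as olfactory receptors, zinc finger genes and the DUX4 array lie there.

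Sequences of member regions are shown first, because they set how the levels can be read. They are from the + strand of hg38. The strongest member of all lies at ADARB2, which encodes a brain-expressed relative of the RNA-editing enzymes, at chr10:1728356-1740071. Its middle, at chr10:1734064-1734363, is AT-rich and holds 1 CG dinucleotide, whereas its most CG-rich window free of annotated untranslated regions (UTRs), at chr10:1736541-1736840, holds 27 (CG in capitals):
ADARB2, middle: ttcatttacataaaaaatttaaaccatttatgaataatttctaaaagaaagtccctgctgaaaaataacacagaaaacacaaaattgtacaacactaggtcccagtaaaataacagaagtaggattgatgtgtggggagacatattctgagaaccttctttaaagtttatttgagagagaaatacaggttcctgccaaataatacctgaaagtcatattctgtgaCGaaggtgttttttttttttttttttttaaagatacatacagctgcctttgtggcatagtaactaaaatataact
ADARB2, most CG: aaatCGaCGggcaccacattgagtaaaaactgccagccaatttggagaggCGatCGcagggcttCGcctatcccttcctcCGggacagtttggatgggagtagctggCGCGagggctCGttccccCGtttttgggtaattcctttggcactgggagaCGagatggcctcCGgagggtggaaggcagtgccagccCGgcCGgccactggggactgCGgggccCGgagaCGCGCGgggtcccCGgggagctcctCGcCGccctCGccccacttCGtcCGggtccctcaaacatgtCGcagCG

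The strongest member away from starts, over the pseudogene transcript ROCK1P1 on 18p, is made of another kind of sequence, a short tandem repeat. The same repeat forms a member inside the DUX4 locus on 4q and the outermost member of 10q, neither of which is near a start. The windows shown are chr18:109260-109559, chr4:190179315-190179614 and chr10:133689398-133689697. Capitals mark a stretch of 14 bases that all 3 windows share, GTGCAGAGATATGT, or its reverse complement ACATATCTCTGCAC in the 18p window:
18p, ROCK1P1: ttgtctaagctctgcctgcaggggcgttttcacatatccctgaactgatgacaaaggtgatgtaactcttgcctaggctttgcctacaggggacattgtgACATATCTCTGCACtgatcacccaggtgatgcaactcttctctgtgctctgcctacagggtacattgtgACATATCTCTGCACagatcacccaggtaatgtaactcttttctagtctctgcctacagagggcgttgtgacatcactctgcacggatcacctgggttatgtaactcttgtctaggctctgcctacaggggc
4q, DUX4: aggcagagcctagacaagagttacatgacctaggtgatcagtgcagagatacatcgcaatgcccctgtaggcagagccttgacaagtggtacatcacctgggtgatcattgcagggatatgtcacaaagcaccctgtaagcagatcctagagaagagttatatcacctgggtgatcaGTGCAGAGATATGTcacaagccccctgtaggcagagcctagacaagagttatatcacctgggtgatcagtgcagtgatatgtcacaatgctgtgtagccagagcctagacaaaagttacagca
10q, outermost: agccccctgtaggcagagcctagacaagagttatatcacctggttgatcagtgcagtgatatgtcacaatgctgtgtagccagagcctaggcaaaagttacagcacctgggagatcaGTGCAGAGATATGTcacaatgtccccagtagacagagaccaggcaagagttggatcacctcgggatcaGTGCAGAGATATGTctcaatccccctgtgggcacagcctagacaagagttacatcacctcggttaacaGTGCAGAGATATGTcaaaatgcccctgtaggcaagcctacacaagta

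In all 3 regions the bases matched themselves best at a shift of 68 bases. A repeat unit of this kind is known from beta satellite DNA, which lies on acrocentric short arms and beyond the DUX4 arrays of 4q and 10q. The mean normalized count was 285.1 in the 18p region, 123.3 in the 4q region and 54.9 in the 10q region. The 4q region is only 820 bp wide and reached 150.4 per kb of width. Each of these sequences occurs many times in hg38, with a median copy number of 12, 17 and 15.5 for sampled stretches of 24 bases, so reads of several copies cannot be told apart there. The remaining member with the stretch, the outermost region of 4q, holds it once and has a mean normalized count of 5.12. Searched on both strands, the stretch was present in 4 members (0.113%), in 2 of 83416 regions farther than 4 Mb from the ends of the same chromosomes and in 18 regions of the whole table. It was chosen after these sequences were seen.

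The telomere repeat itself was rare in the members. Joined copies of TTAGGG, or CCCTAA on the other strand, occurred in 4 of the 3534 members (0.113%), with no more than a pair of copies, and all 4 lay near protein-coding starts. They lay at ACAD8 and THYN1 on 11q (117.3), SELENOO on 22q (40.7), NELFB on 9q (36.2) and CIAO3 on 16p (16.5), between 615 and 1137 kb from the end. Bases around the repeat, in capitals, are shown for the 3 places outside annotated UTRs, at chr11:134251924-134252023, chr22:50201822-50201921 and chr9:137256391-137256490:
11q, ACAD8 and THYN1: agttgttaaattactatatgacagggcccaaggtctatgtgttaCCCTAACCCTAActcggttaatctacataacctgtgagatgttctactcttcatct
22q, SELENOO: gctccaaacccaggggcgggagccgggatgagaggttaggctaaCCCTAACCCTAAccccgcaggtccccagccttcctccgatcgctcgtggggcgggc
9q, NELFB: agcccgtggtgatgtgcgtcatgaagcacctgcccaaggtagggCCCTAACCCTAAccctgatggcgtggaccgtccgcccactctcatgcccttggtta

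In the rest of the same chromosomes, farther than 4 Mb from the ends, 20 of 83416 regions (0.0240%) held such joined copies, so they were few in both but the share was higher at the ends, a difference that rests on 4 regions and was not tested. A single TTAGGG or CCCTAA was present in 27.8% of members and in 30.9% of the rest.

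The labelled cell type was checked at promoters over the whole table. All 12 beta cell markers had a region, with a median of 259.8 and the highest values at PAX6 (664.6), ISL1 (588.2) and SLC30A8 (473.4). The lowest were INS (24.7), which encodes insulin, and IAPP (6.94), which encodes the amyloid peptide released with it. Of 4 acinar markers 3 had a region, at 1.12 to 4.17, and of 5 blood markers only HBZ had one (19.4). The ductal markers KRT19 and SOX9 had 24.1 and 17.0, and the delta cell markers SST and HHEX had 21.9 and 30.7. Values of 4.37 and 9.36 were found at the fibroblast markers COL1A1 and COL3A1, and 10.96 at the neuron marker RBFOX3. Markers of other cell types thus reached the levels of INS and IAPP. The alpha cell genes IRX1 and IRX2 stood at 103 and 61.8, and GCG, which encodes glucagon, at 5.30. The part of other cell types in the results was not tested.

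H3K4me3 regions were denser at the chromosome ends than in the rest of the same chromosomes. The members made up 48.9 regions per Mb of sequence, against 46.3 in the next 2 Mb inwards and 33.1 in the rest. Regions near starts numbered 17.7 per Mb at the ends, 11.0 in the next 2 Mb and 7.38 in the rest. Protein-coding genes numbered 15.1, 8.41 and 6.29 per Mb in the same order. Regions away from starts numbered 31.2 per Mb at the ends, fewer than the 35.3 per Mb just inside and more than the 25.7 per Mb of the rest. The share of regions near a start was therefore 36.3% of the members (95% Wilson interval 34.7 to 37.9%, which covers counting only), 23.7% of the next regions and 22.3% of the rest. The sequence itself had a GC content of 48.8% at the ends and 40.4% in the rest.

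**Figure D1:**
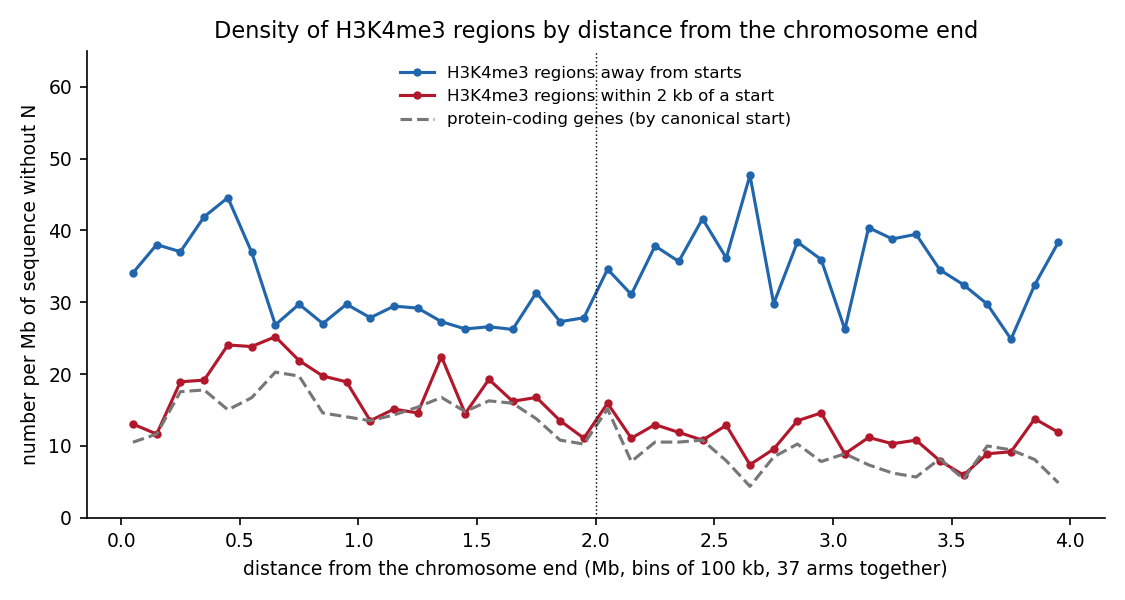
Number of H3K4me3 regions near (red) and away from (blue) protein-coding starts per Mb of sequence, and of protein-coding genes (dashed), in bins of 100 kb from the chromosome end over 37 arms. The dotted line marks 2 Mb, and regions near starts and genes both average higher inside it (17.7 and 15.1 per Mb) than beyond it (11.0 and 8.41), while regions away from starts average 39.1 per Mb in the outer 600 kb.

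Along the outer 2 Mb the regions near starts were sparse at both edges of the window. They numbered 13.05 per Mb in the outermost 100 kb, 25.2 per Mb between 600 and 700 kb and 11.1 per Mb in the last 100 kb. Within the outer 2 Mb, regions away from starts were densest between 400 and 500 kb, with 44.6 per Mb. In the outer 600 kb they numbered 39.1 per Mb, against 28.0 per Mb from 600 kb to 2 Mb. Without 4p and 12q, the arms with most members, the outer 600 kb held 29.1 per Mb and the remainder 28.2 per Mb, so the excess lay in those arms (this alternative was chosen after seeing the data). Multi-copy regions, whose sampled stretches have a median of over 2 copies in hg38, made up 10.7% of members in the outermost 100 kb and 2.89% between 1500 and 2000 kb.

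Members near starts had lower mean normalized counts than regions near starts elsewhere. Their median was 10.6 (quartiles 4.09 and 30.9), against 12.5 in the next 2 Mb and 22.02 (quartiles 5.44 and 60.98) in the rest. Members away from starts had a median of 3.89 (quartiles 2.18 and 8.72), against 3.72 in the next 2 Mb and 3.51 in the rest. With no value per sample these medians were not tested, and regions are not replicates. Over the regions alone, a 95% order-statistic interval of the median ran from 9.37 to 11.8 for members near starts and from 3.63 to 4.11 for the others. Of members near starts 14.6% had a mean normalized count of at least 50, against 30.4% in the rest. Although they are 36.3% of the members, the regions near starts held 60.8% of the summed counts. In the rest of the same chromosomes, regions near starts were 22.3% of the regions and held 60.6% of the sum.

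**Figure D2:**
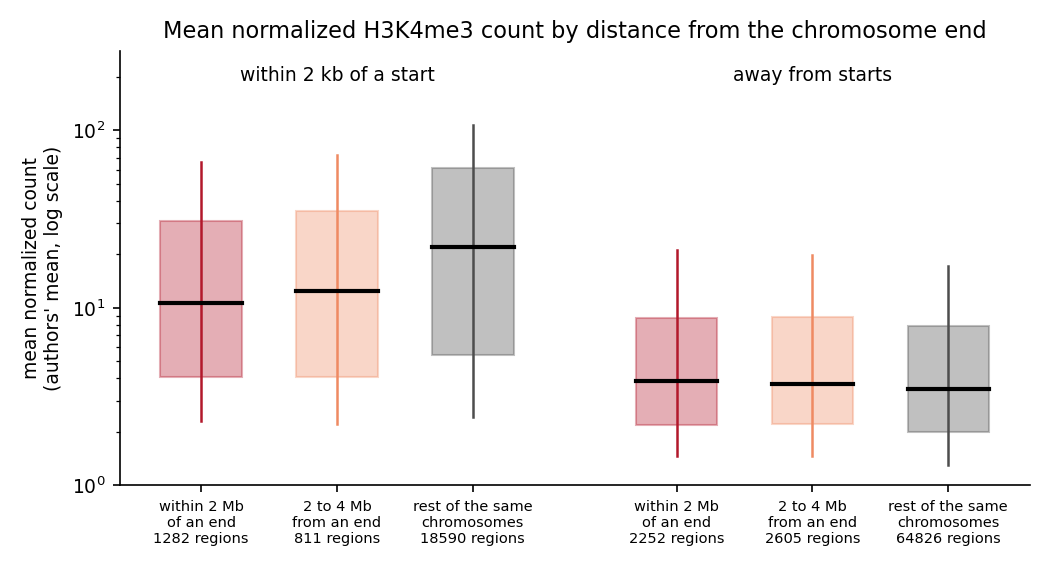
Mean normalized count (log scale) of regions near and away from protein-coding starts, within 2 Mb of an end, 2 to 4 Mb from an end and in the rest of the same chromosomes. Black lines are medians, boxes quartiles and whiskers the 10th and 90th percentiles over regions, and near starts the boxes rise from the ends to the rest.

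Width moved with these levels. Members near starts had a median width of 1002.5 bp, against 1096 bp in the next 2 Mb and 1545 bp in the rest, and 5.62% of them were at least 4000 bp wide, against 11.0% in the rest. Per kb of width the medians near starts were 10.2, 10.8 and 13.3. Among regions of the same width the medians lay closer. They were 6.16 for members and 5.82 for the rest from 500 to 1000 bp, 18.5 and 19.4 from 1000 to 2000 bp, and 47.1 and 58.2 from 2000 to 4000 bp. Members near starts were split between 598 that held a start themselves, with a median of 22.96, and 684 that lay beside one, with a median of 5.75. In the rest the corresponding medians were 45.5 and 5.48, and 60.7% of the regions near starts held a start, against 46.6% of the members.

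Base composition moved with position as well. The median GC content was 55.7% in members near starts and 44.8% in members away from starts, against 49.2% and 39.6% in the rest. The ratio of observed to expected CG dinucleotides was alike near starts, with medians of 0.519 and 0.521, and was 0.276 in members away from starts against 0.182 in the rest. Among regions of 60 to 70% GC near starts the median count was 8.40 in the members and 10.7 in the rest, and at 40 to 50% GC it was 12.5 and 42.8. The latter members had a median width of 1219 bp and the latter regions of the rest 2176 bp. Their separate parts in the difference were not tested.

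Counted by gene, 1089 protein-coding genes had their canonical start in the outer 2 Mb of these arms. Of these 773 (71.0%) had a member within 2 kb of any start, and neighbouring genes share regions, so these are 642 regions. The level of the strongest such region is the promoter value of the gene. The median promoter value was 28.2, against 31.9 in the next 2 Mb, where 75.6% of 620 genes had a region, and 55.0 in the rest, where 77.3% of 15847 genes had one. A promoter value of at least 50 was found at 20.8% of the genes at the ends and at 41.4% of the genes in the rest.

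The genes at the ends start in more GC-rich sequence. The median GC content of the 500 bases around the canonical start was 72.2% at the ends and 64.2% in the rest. Within classes of this GC content the promoters at the ends still had fewer regions. From 60 to 70% GC, 62.0% of 274 genes at the ends had a region, with a median of 34.9, against 88.3% of 5594 genes in the rest, with a median of 65.02. From 70 to 80% GC, 87.2% of 525 genes at the ends had a region, with a median of 28.2, against 93.8% and 43.4 in the rest. At 80% or more the values were 69.5% and 13.03 at the ends, against 90.6% and 29.9 in the rest. The next 2 Mb lay between them from 60% GC upwards in both measures. Below 40% GC only 3 of 38 genes at the ends had a region, and these are mostly olfactory receptor genes. From 40 to 50% GC the order of the medians was the other way, 34.0 at the ends and 30.3 in the rest, but the end set held only 13 genes with a region.

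**Figure D3:**
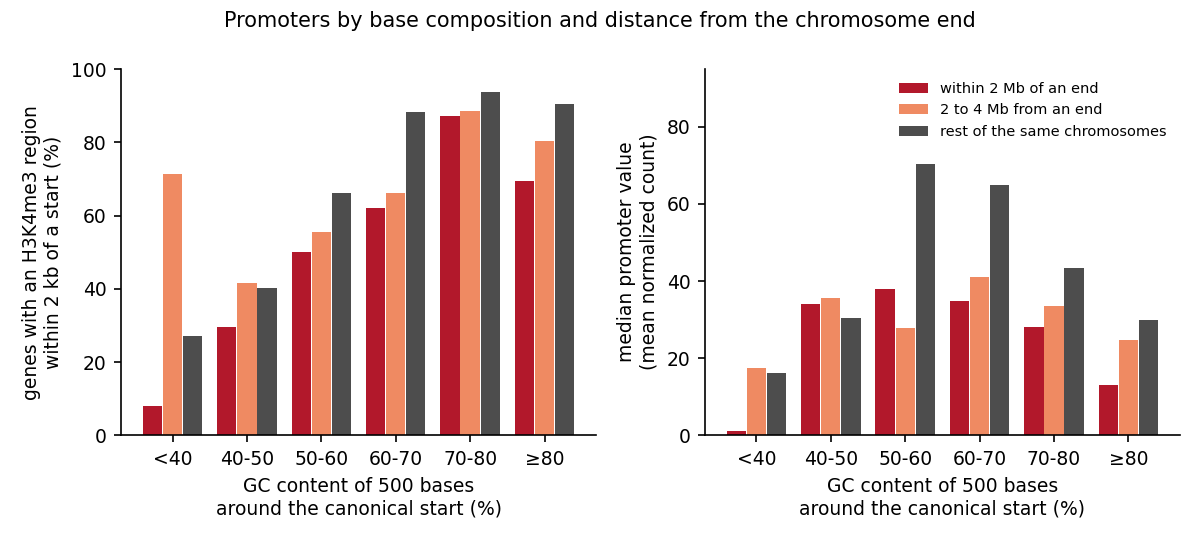
Share of protein-coding genes with an H3K4me3 region (left) and median promoter value of those genes (right, mean normalized count) by GC content around the canonical start. Bars are the outer 2 Mb, the next 2 Mb and the rest of the same chromosomes, and from 50% GC upwards the outer 2 Mb is below the rest in both panels. The first class holds only 7 genes in the next 2 Mb.

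The strongest members near starts were broad. Strength here is the mean normalized count, not divided by width, and over members near starts it rose with width (Spearman correlation 0.918). ADARB2 on 10p reached 319.1 over 11715 bp, which is 27.2 per kb. The region chr2:241313603-241322256 on 2q, shared by HDLBP, an RNA-binding protein, and SEPTIN2, a filament protein of the cell cortex, reached 303.5. Also on 2q, the start shared by PASK, a nutrient-sensing kinase, and PPP1R7, a regulator of protein phosphatase, reached 269.8 over 4615 bp (chr2:241147975-241152590), the highest per kb of these 5 at 58.5. IQSEC3 on 12p, an exchange factor for ARF GTPases, reached 247.0 at chr12:65699-72480, only 65.7 kb from the end. The region beside FARP2 reached 232.2 at chr2:241356631-241361296 and lies 333 bp from the nearest start rather than on it. So 3 of the strongest 5 lie within 1041 kb of the end of 2q, all in single-copy sequence, while the IQSEC3 region has a median copy number of 2.

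Of the 5 strongest members away from protein-coding starts, 3 overlap starts of long non-coding RNA (lncRNA) genes. After ROCK1P1 (chr18:106959-111860, 285.1) came the LINC00115 and LINC01128 region on 1p (chr1:825814-832669), with 201.5 over 6855 bp. LINC01238 on 2q (chr2:242087228-242092231) followed with 170.7. The other two lie on 15q, one over an exon of LRRK1, a kinase gene (chr15:101007067-101009785, 138.6), and one over the dynamin pseudogene DNM1P47 (chr15:101763387-101764785, 136.7), whose sequence has a median copy number of 22.5. The LRRK1 region is 11.9 kb from the nearest protein-coding start and has a single copy. Over all 2252 members away from starts, 230 (10.2%) lay within 2 kb of a lncRNA start, with a median of 9.39, and the other 2022 had a median of 3.63. In the rest the share was 5.37%, with medians of 7.37 and 3.41.

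All 2252 members away from starts, those at lncRNA starts included, were divided by the annotation they overlap. Introns of protein-coding genes held 1016 (45.1%, median 3.56) and intergenic sequence 1005 (44.6%, median 3.96). Exons with a UTR held 151 (median 4.61) and other exons 80 (median 6.08). Pseudogenes were overlapped by 84, with a median of 6.38. Multi-copy sequence made up 4.88% of members away from starts and 1.33% of those near starts, against 4.80% and 0.775% in the rest. The 127 multi-copy members had a median of 2.97, so the repeat regions of 18p, 4q and 10q shown above are exceptions among them. Internal tandem repeats, in which at least 60% of bases match at a single shift of 20 to 200 bases, were found in 24 members (0.679%) and in 0.506% of the rest. The strongest of these lies next to DNM1P47 on 15q (chr15:101762473-101763145), with 59.3 and a shift of 91 bases. The outermost region of 4q, which holds the stretch of 14 bases once, is among the 24, with 75.2% of bases matching at a shift of 136. The 3 regions whose repeat windows are printed above are not, since over their whole width only 52.3% (18p), 53.1% (4q) and 46.7% (10q) of bases match at the best shift.

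The arms differed almost 10-fold in their number of members, from 24 on 4q to 228 on 4p, with a median of 86. Most members lay on 4p (228), 12q (218) and 2q (192), and fewest on 4q (24), 1q (44) and 14q (45). Across the 37 arms the number of regions near starts followed the number of protein-coding genes (Spearman correlation 0.836), whereas the number away from starts did not (-0.0202). These are descriptions of 37 arms that share the same samples. On 1q, 62 genes stood beside only 16 regions near starts, and most of those genes are olfactory receptors. On 7q, 101 of 117 members lay away from starts. On 16p, which had the most genes (92) and the highest GC content (57.6%), 84 of 116 members were near starts.

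Levels differed between arms too. Among arms with at least 20 regions near starts, the median mean normalized count near starts was highest on 3q (40.4, 25 regions), an arm end with RPL35A, a ribosomal protein (121). It was lowest on 12q (5.76, 84 regions), where many weak regions stand beside the strong zinc finger promoters, and on 11p (5.96, 53 regions). The summed count was highest on 2q, at 4304, with HDLBP, PASK and FARP2 among its members.

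**Figure D4:**
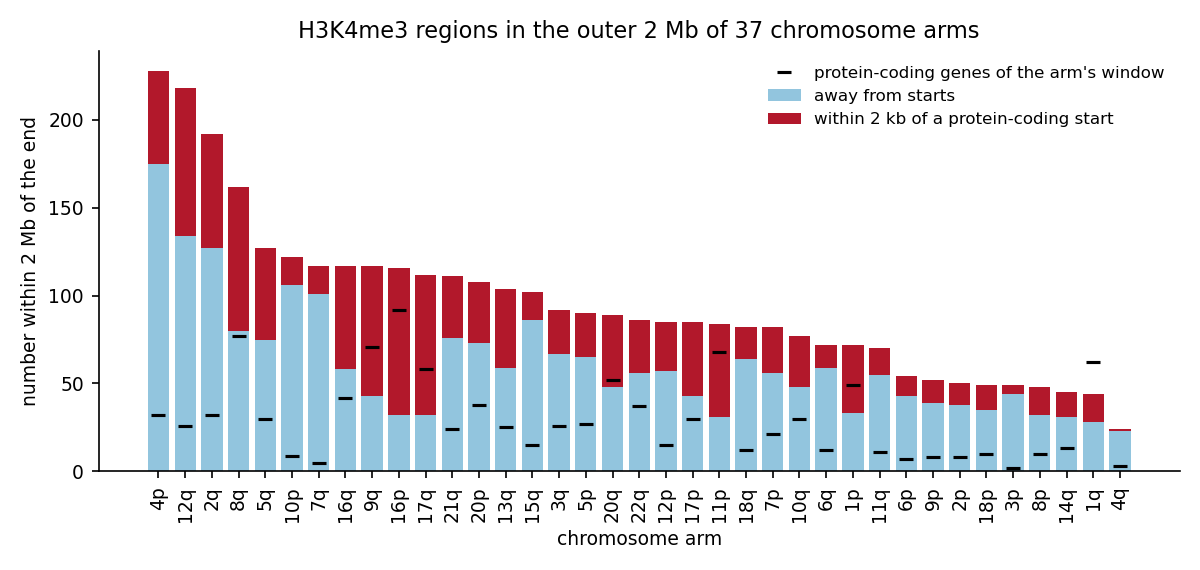
Number of members on each of 37 chromosome arms, split into regions away from (blue) and near (red) protein-coding starts, with the number of protein-coding genes that start in the same 2 Mb as black marks. The tall bars of 4p, 12q and 2q are mostly regions away from starts, as are the members of all arms together (63.7%).

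The members of 4p and 12q were gathered at the tip. Of the 228 on 4p, 148 (64.9%) lay in the outer 600 kb, 136 of them away from starts, and on 12q it was 174 of 218 (79.8%), 103 of them away from starts. On 2q it was 44 of 192. Clusters of C2H2 zinc finger genes, most of them KRAB repressors, occupy both tips. Bodies of ZNF genes held 79 of the members away from starts on 4p (45.1%, median 4.09) and 53 of those on 12q (39.6%, median 5.51), and 172 over all arms. Most promoters of these genes were among the higher ones: ZNF718 (121.6), ZNF721 (93.0), ZNF595 (91.4) and ZNF141 (89.5) on 4p, and ZNF10 with ZNF891 (128.7), ZNF140 (125.3), ZNF26 (112.7), ZNF84 (74.6) and ZNF268 (68.5) on 12q. The lowest were ZNF732 on 4p (3.11, or 1.83 nearest its canonical start) and ZNF605 on 12q (36.4). The ZNF595 region has a median copy number of 2.

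The outermost member of an arm lay between 10.1 kb and 274.7 kb from the end, with a median of 57.8 kb, and in 16 arms it lay within 50 kb. The hg38 sequence begins only after 10 to 160 kb of unread bases, 10 kb on 23 of the arms. Counted from the first read base, the outermost member lay between 0.148 and 257.9 kb away, with a median of 36.4 kb, and within 50 kb in 24 arms. Of the 37 outermost members 8 were near a start and 11 were multi-copy. Their median mean normalized count was 5.63. On 16p, where it began 0.148 kb inside the read sequence at chr16:10148-10737, it had 15.9, a GC content of 64.2% and CG dinucleotides close to the expected number (ratio 0.908). On 3p it lay over the start of LINC01986 at chr3:11718-12422, with 14.1. On 7p it lay in the FAM157D transcript (15.4, 4 copies) and on 9p inside WASHC1 (14.1, 4 copies), a member of the WASH family that is repeated at many ends. Gene starts lay at the outermost members of 10p (TUBB8, a beta-tubulin of oocytes, 5.63), 18p (its copy TUBB8B, 12.5) and 22q (RABL2B, a ciliary GTPase, 50.2). Those of 17p (DOC2B, a calcium sensor of vesicle release, 4.67) and 18q (PARD6G, a polarity protein, 1.23) lay beside a start, 93 and 42 bp away. The highest outermost member was at TRIM52 on 5q (204.6), which lies 274.7 kb from its end. On 20q (67.5), 14q (63.3) and 10q (54.9) the outermost member was strong with no protein-coding start within 2 kb.

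Gene lists of the outer 2 Mb were then read by their promoter values. All 24 constitutive genes with a start in the window had a region, with a median of 113.7, and 19 were at or above 50. HDLBP (303.5) led, followed by the shared start of the proteasome subunit PSMB1 and the TATA-binding protein TBP (205.3). The start shared by MRPL36, of the mitochondrial ribosome, and NDUFS6, of respiratory complex I, had 195.6. The lowest were TBCD, a tubulin cofactor (6.16), and POLR2L, an RNA polymerase II subunit (9.06). Of 1089 genes at the ends the median promoter value among those with a region was 28.2, which is the reference for the lists below. A gene with several starts can take its value from a region away from its canonical start, and where the region nearest that start is over 1.5 times weaker, its value is given beside the gene. Genes whose nearest region is itself far from that start are not marked in this way. That distance is 3.31 kb for IFITM3, 4.69 kb for RHBDF1, 6.06 kb for OR2L2, 10.7 kb for HBM and 23.2 kb for TUBB8B. The value of ZNF721 is from a region 24.4 kb away, and the region nearest its canonical start had 87.2. With the regions nearest canonical starts the median over all genes at the ends with a region was 20.2 rather than 28.2.

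Of 21 cell cycle and DNA replication genes 19 had a region, with a median of 59.2 and 16 above the reference. With the regions nearest canonical starts the median was 38.6, and 14 were above the matching 20.2. DTYMK, which makes thymidine nucleotides, had 160.8. The condensin subunits NCAPD3 and NCAPG2 had 139.5 and 100.7, and RPA1, which binds single-stranded DNA, had 94.97. POLE, the leading-strand polymerase, had 7.54, and the licensing factor CDT1 had no region. All 15 chromatin modifiers had a region, with a median of 39.1. KDM5A, which removes methyl groups from lysine 4 of histone H3 and shares its region with CCDC77, had 220.5, ING5, whose PHD finger binds that mark, had 160.8, and the sirtuin SIRT3 had 83.4. The Polycomb protein PCGF3 had 2.35. ING5 shares its region with DTYMK and SIRT3 with the proteasome subunit PSMD13, so these are not separate measurements. The shared region lies 13.4 kb from the canonical start of ING5, and the region nearest that start had 27.1.

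Of 17 genes of beta cells and islet secretion 14 had a region, with a median of 24.8 and 6 above the reference (with the regions nearest canonical starts, a median of 9.68 and 6 above the matching 20.2). PASK (269.8), CAPN10, a calpain (149.8), PTPRN2, a protein of insulin granules (95.3), and RPH3AL, which acts in granule release (84.9), stood highest. KIF1A, a vesicle motor, had 37.8, but only 2.58 in the region nearest its canonical start. The small Maf proteins MAFK and MAFG had 28.2 and 21.3, and the region nearest the canonical start of MAFG had 5.09. A receptor and a channel gene were lower, with 9.51 at VIPR2, a receptor for the peptides VIP and PACAP, and 2.77 at the calcium channel CACNA1H. PCSK6, SLC6A3 and CACNA1B had no region in the table.

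Developmental transcription factors were mostly without a region. Only 7 of 18 had one, with a median of 12.01, although the median GC content at their starts was 73.0%. MYT1, a zinc finger factor of islet and neural development, had 123.3, DMRT2 had 56.6 and SOX12 had 31.6. FOXQ1 (9.93, or 3.34 nearest the canonical start), FOXC1 (5.08, or 2.46) and IRX4 (3.05) had weak regions. HES4, UTF1, VENTX, SOX8, TCF15, GATA5, SOX18, FOXF2, UNCX, DMRT1 and DMRT3 had none. In the Notch pathway 4 of 8 had a region, with a median of 46.5 (16.9 with the regions nearest canonical starts). The ligand DLL1 had 65.9, the coactivator MAML1 48.6 and the ubiquitin ligase MIB2 44.4, but the regions nearest the canonical starts of DLL1 and MAML1 had 22.2 and 11.5. By contrast the receptor NOTCH1 had 1.88, and the ligand JAG2 had no region. Of 8 testis and germline genes only PRDM7 (57.8) and RAD21L1 (10.9) had a region.

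**Figure D5:**
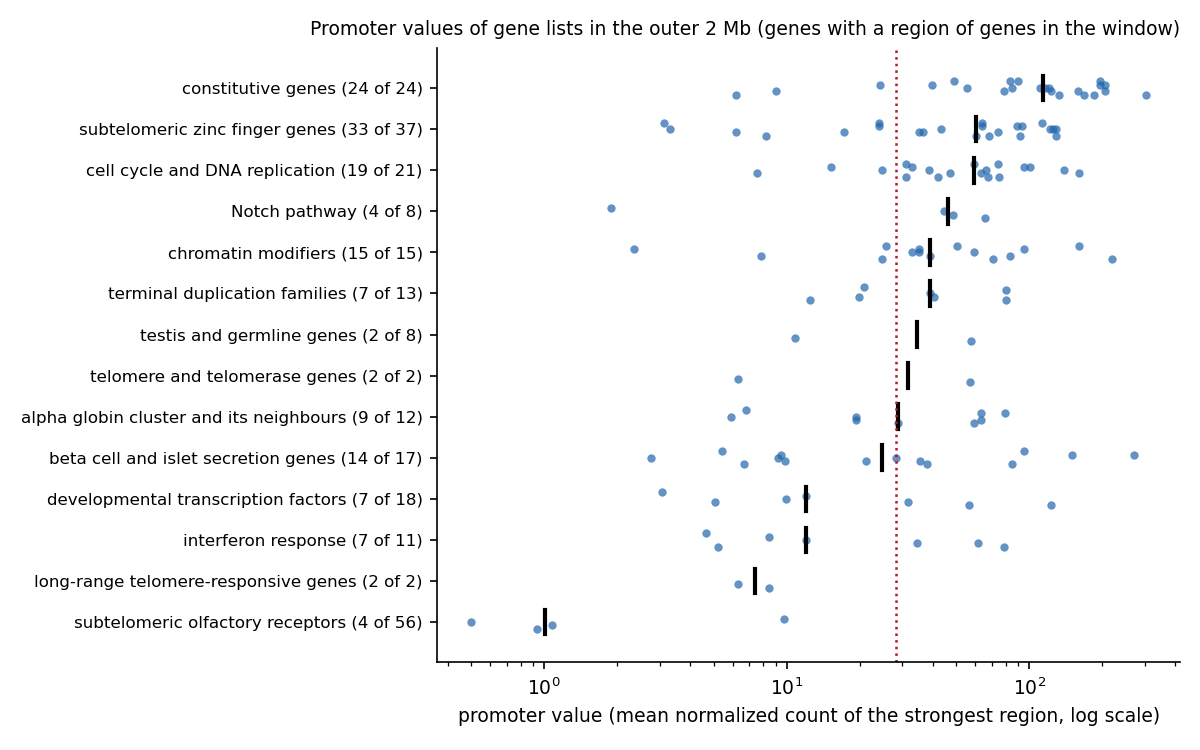
Promoter values (mean normalized count, log scale) of genes in 14 lists within the outer 2 Mb, one point per gene with a region and a black bar at the list's median, with the number of genes with a region of the genes in the window in parentheses. The dotted line is the median of all genes at the ends with a region. Constitutive genes lie mostly to its right and olfactory receptors to its left. Genes of 1 chromosome that is counted without naming its genes have no point.

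Olfactory receptor genes had the smallest share with a region of the 14 lists. Of 56 with a start in the window only 4 had a region, OR4F15 on 15q (9.79, or 1.06 nearest its canonical start) and OR2L2 (1.08), OR13G1 (0.930) and OR2M7 (0.4998) on 1q. The median GC content at their starts was 38.4%. Of 37 zinc finger genes 33 had a region, with a median of 60.4 and 22 above the reference. A region missing from the table means only that no region was listed there.

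Genes listed under terminal duplication families were mixed. Of 13 listed genes 7 had a region, with a median of 39.02 (19.8 with the regions nearest canonical starts). BET1L and RIC8A on 11p share the strongest region of this list (80.2). FAM110C on 2p had 40.4 (7.64 in the region nearest its canonical start) and FRG1 on 4q had 39.02. The regions that give the values of BET1L, RIC8A, FAM110C and FRG1 have a median copy number of 1, so these values are from single-copy sequence. The tubulins TUBB8 and TUBB8B had 20.9 (5.63 nearest the canonical start) and 12.5, with 2 copies each, and ZNG1A had 19.8, with 5 copies. DUX4, FRG2, FRG2B, WASHC1, SCGB1C1 and ODF3 had no member within 2 kb of a start. The repeat member inside the DUX4 locus is 3.86 kb from the nearest start.

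The alpha globin cluster on 16p, a classic subtelomeric locus that is active in red cells, was mixed. Of the surrounding genes LUC7L (79.9), POLR3K with SNRNP25 (63.5), FAM234A (59.2) and NPRL3 (28.7), which carries the distant globin enhancers in its introns, had the higher values, and MPG (6.78) and RHBDF1 (5.89) had the lowest of the locus. Of the globin genes HBA1, HBA2 and HBQ1 had no region, and HBZ and HBM shared one of 19.4. Of 11 genes listed for the interferon response, not all of them interferon-stimulated, 7 had a region, with a median of 12.01 and 3 above the reference. With the regions nearest canonical starts the median was 8.97, and 2 were above the matching 20.2. TRIM41 and TRIM7 on 5q had 79.1 and 61.6 (8.97 in the region nearest the canonical start of TRIM7) and IFITM3 on 11p had 34.5. IRF4 on 6p (12.01), ISG15 on 1p (8.47), HELZ2 on 20q (5.21) and SIGIRR on 11p (4.65) were lower, while IFITM1, IFITM2, IFITM5 and IRF7, all on 11p, had none. Of the telomere maintenance genes in the window, the helicase gene RTEL1 on 20q had 57.0 and TERT on 5p, which encodes the catalytic subunit of telomerase, had 6.32. The TERT region lies 0.855 kb from the canonical start. The non-senescent cells also carry the hTERT transgene, and the part of its reads in this value was not tested. Of the 5 listed genes known to respond to telomere length over long distances, ISG15 and TERT lie in the window.

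The window's edge falls within ordinary regions. On the short arms the last members inside 2 Mb had 1.11 on 4p and 35.3 on 17p, and the first regions outside had 8.55 on 17p and 8.87 on 11p. On the long arms the last inside had 9.24 on 9q and 10.1 on 22q, and the first outside had 31.2 on 21q and 1.37 on 10q.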

How the data were processed

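H3K4me3 was measured by MINT-ChIP, in which sample-barcoded chromatin digested with MNase is pooled before immunoprecipitation. The series has 24 samples. Its 16 H3K27me3 and H3K9me3 samples are not analysed here. The authors aligned paired-end reads to hg38 with Bowtie2, used samtools, called peaks with HOMER findPeaks and ran DESeq2. How peaks were merged, how reads were counted and whether duplicates or reads of several places were kept is not given in the sources used here. The deposited signal used is 1 column, the authors' mean over samples of DESeq2-normalized counts. The other deposited columns hold the authors' comparison of the states (log2 fold change, standard error, Wald statistic, p-values) and were not used.

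Widths are end minus start, and the file does not say whether starts count from 0 or 1. Genes came from GENCODE release 44 and sequence from hg38. Copy number is the median occurrence of up to 60 sampled 24-base stretches in 194 hg38 sequences. A promoter value is the highest mean normalized count among regions that overlap 2 kb either side of any start of a gene, and only members count for genes whose canonical start is in the outer 2 Mb. Genes of chromosome 8 are counted but not named, and 1 other list member is not reported here. Named are the list members, the 5 strongest members near and away from starts, the outermost member of an arm and the arms with most and fewest members. Other regions and arms singled out, among them 3q, 11p, 7q and 16p, were chosen after their values were seen. Sequences are from the middle of the strongest members and around telomere repeats. The most CG-rich window and the repeats of 4q and 10q were added after seeing the data. The members and lists were chosen with earlier results of these data known. Functions were tested on made-up sequence. Python 3.11.15, numpy 2.4.6, pandas 2.3.3, scipy 1.17.1, numba 0.67.0, pysam 0.24.0 and matplotlib 3.10.9 were used.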

Additional observations from a re-analysis of the deposited data

How the results depend on the processing

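No paired analysis was possible because the deposited table holds no value per sample, and for the same reason no replicate could be left out. A window of 1 Mb gave 1923 members with a median GC content of 47.5%. A window of 4 Mb gave 6950 members, 30.1% of them near a start, with a median GC content of 47.2%. With 1 kb either side of a start the share near a start was 31.3% and their median mean normalized count 12.7, and with 5 kb it was 47.0% and 7.78. Regions with a mean normalized count of at least 5 numbered 1814, at 25.1 per Mb, with 49.3% near a start, medians of 19.8 near and 10.9 away from starts and a median GC content of 51.7%. Per kb of width the medians were 10.2 near and 5.98 away from starts. Without 4p and 12q, chosen after seeing the data, the median GC content was 49.4%. Leaving out multi-copy regions, or taking regions that only overlap the window, kept the number and the density of members within 1.5 times, and the share near a start and the medians of count and GC content within their 95% intervals over regions. The median near starts was lower at the ends than in the rest with 1 kb (12.7 against 28.9), 5 kb (7.78 against 12.05) and a count of at least 5 (19.8 against 37.1). Of 134 named promoter values, 20 moved by over 1.5 times with the region nearest the canonical start, among them CTBP1 (7.30), TFDP1 (7.29), NSD2 (12.5), TACC3 (11.7), EHMT1 (16.2) and SDHA (28.5) beside those given above, and 34 with the sum over regions. Depth per sample is unknown, regions of low count cannot be told from background here, and multi-copy sequence cannot be assigned to 1 place.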
